A study of Homo sapiens with 6 samples.

Results

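Integrin subunits and laminin chains are the receptor and ligand genes by which epithelial cells hold on to basement membrane. Their rows were taken from a table of counts per gene by symbol, that is every ITGA, ITGB, LAMA, LAMB and LAMC gene, which gave 38 of 32078 named genes: 18 integrin alpha subunits, 8 integrin beta subunits and 12 laminin chains. The cells are labelled PANC-1, a widely used human pancreatic carcinoma line, and poly(A) RNA was sequenced in 6 libraries. Cells of 3 libraries carry the label of treatment with vesicles shed by cancer-associated fibroblasts (here EV-labelled), and those of 3 carry a control label (control-labelled). Since one protocol text with vesicle treatment stands at all 6, titles and treatment labels alone define the groups, with dose and time of the vesicles not given in the sources used here. Separate cultures are stated in no label, so p-values cover the spread between libraries, which may be technical alone.

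An integrin is a pair of 1 alpha and 1 beta subunit that spans the plasma membrane. The alpha subunit largely sets which matrix protein is bound, and the beta tail ties the receptor to actin through talin and kindlin or, for β4, to keratin filaments through plectin. A laminin is a cross-shaped trimer of 1 alpha, 1 beta and 1 gamma chain. In epithelia the receptor α6β4 and a laminin with α3 and β3 chains meet at hemidesmosomes, the junctions that rivet a cell to its basement membrane.

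Total counts of named genes ran from 21647493 to 27498709 per library. A count of 0 allows up to 3 counts, or 0.110 to 0.138 CPM (counts scaled by library size and TMM factors), and covers counting error only. Of markers that carcinoma cells of this kind can carry, the keratin gene KRT18 averaged 1375 CPM in EV-labelled and 1271 CPM in control-labelled libraries. KRT8, VIM and CD44 had still higher levels in both groups. Of 11 markers listed for PANC-1, 8 were tested, 5 were lower (62.5%, against 20.7% of all tested genes) and 1 higher (12.5%, against 20.2%). The lower ones with the EV label were VIM (-0.37, edgeR adjusted p = 2.54e-05), CD44 (-0.19, edgeR adjusted p = 0.00977), SOX9 (-0.42, edgeR adjusted p = 1.06e-05), KRT19 and ITGB1. L1CAM was higher (1.58, edgeR adjusted p = 8.43e-07). Of 9 epithelial carcinoma markers, 5 were tested, and KRT8 and KRT18 were not called. The other 3 were lower with the EV label (60%, against 20.7% of all tested genes), and 0 were higher (against 20.2%). ITGB4, ITGA3, LAMB3 and COL17A1 were lower too, and the part of the marker change in those results was not tested. The 3 lower markers were KRT19 (-0.48, edgeR adjusted p = 5.78e-06), the tight junction gene CLDN4 (-0.73, edgeR adjusted p = 2.72e-08) and the mucin gene MUC1 (-1.35, edgeR adjusted p = 1.89e-08). Summed, the epithelial markers overlapped, at 4935 to 5428 CPM in the EV-labelled libraries and 4766 to 5292 CPM in the control-labelled libraries. Most of that sum was KRT18, with the levels given above, and KRT8, which alone averaged 3382 CPM in EV-labelled and 3063 CPM in control-labelled libraries. The overlap therefore says little about the 3 lower markers. CDH1, EPCAM and CDH2 had 0 counts in every library, KRT7 and MSLN stayed under 1 CPM, and whether the cells are PANC-1 was not tested.

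Of the 38 genes, 20 averaged at least 1 CPM in either group: 7 alpha subunits, 5 beta subunits and 8 laminin chains. Both subunits passed that level for 9 of 24 known integrin pairs. These were the laminin receptors α3β1, α6β1 and α6β4, the RGD receptors α5β1, αVβ1, αVβ5 and αVβ8, the collagen receptor α10β1, and αDβ2, a leukocyte integrin that sat at the limit. Of 15 laminin trimers, 8 had all chains at that level. These are transcripts of bulk cultures, in which fewer cells of a type and less RNA per cell cannot be told apart, and no protein was measured.

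**Figure D1:**
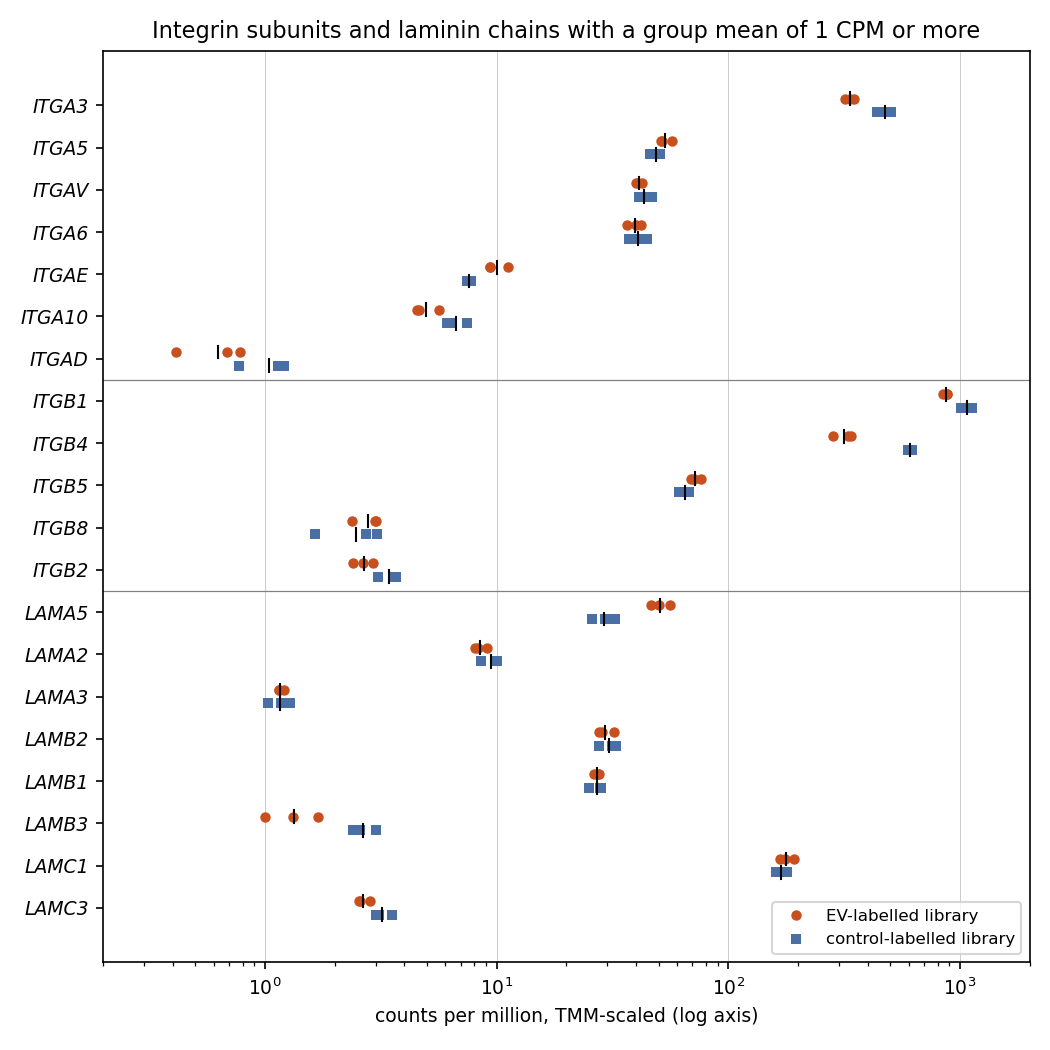
CPM (log axis) of the 20 genes with a group mean of at least 1 CPM, in each library, with EV-labelled libraries as circles above control-labelled libraries as squares and a black tick at each group mean. ITGB4, ITGA3, ITGB1, ITGA10 and LAMB3 were called lower, and LAMA5 and ITGAE higher, in the EV-labelled libraries, with no overlap. The groups of ITGA5, ITGB5, ITGB2 and LAMC3, which were not called, did not overlap either, and those of the other genes shown did.

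Among the 22 genes that passed the count filter, edgeR's quasi-likelihood test called 2 genes higher and 5 genes lower with the EV label, at an adjusted p under 0.05. That is 31.8% of them, against 40.9% of all 14670 tested genes (20.2% higher and 20.7% lower), so changes were not more frequent here than in the table at large. The median log2 fold change was -0.07, against -0.01 over all tested genes. The called genes were ITGB4, ITGA3, ITGB1, ITGA10 and LAMB3, which were lower, and LAMA5 and ITGAE, which were higher. Summed over all 38 genes, the level was 1995 to 2108 CPM in the EV-labelled libraries, against 2616 to 2665 CPM in the control-labelled libraries. ITGB4, ITGB1 and ITGA3 together made up 74.2% of that sum in the EV-labelled libraries and 81.3% in the control-labelled libraries. Without these 3 genes the sums overlapped, at 516.5 to 549.7 CPM in EV-labelled and 473.1 to 521.6 CPM in control-labelled libraries.

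ITGB4 encodes β4, which pairs only with α6 and whose long tail anchors keratin at hemidesmosomes. It had 339, 282 and 329 CPM in the EV-labelled libraries, against 605, 599 and 620 CPM in the control-labelled libraries. Every EV-labelled library lay far below every control-labelled library, and EV replicate 2 was the lowest. The log2 fold change was -0.94 ± 0.07 (SE; edgeR adjusted p = 2.79e-09), that is 1.92-fold lower, and 5.15% of all tested genes moved by at least 0.9 on the log2 scale. Its only partner, ITGA6, was not called, with 36.7, 41.8 and 39.8 CPM in the EV-labelled libraries, against 44.8, 37.3 and 40.3 CPM in the control-labelled libraries (-0.05 ± 0.08, edgeR adjusted p = 0.646). These ranges overlap. The ratio of ITGB4 to ITGA6 was 9.25, 6.74 and 8.26 in the EV-labelled libraries, against 13.5, 16 and 15.4 in the control-labelled libraries. The exact two-sided permutation p of 0.1 is the smallest that 3 against 3 libraries allow, and it is 0.15 adjusted over the 6 ratios computed, which were chosen after the values were seen.

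ITGB1, which encodes β1, the common partner of most alpha subunits, was the most abundant of the 38 genes. It had 847, 878 and 880 CPM in the EV-labelled libraries, against 1014, 1070 and 1122 CPM in the control-labelled libraries. The groups did not overlap, and the log2 fold change was -0.30 ± 0.06 (edgeR adjusted p = 0.000354). ITGB4 thus stood at 0.365 ± 0.0404 of ITGB1 in CPM in the EV-labelled libraries, against 0.570 ± 0.0236 in the control-labelled libraries (n = 3 each, SD; exact permutation p = 0.1, adjusted p = 0.15). ITGB1P1, a pseudogene copy whose near-identical sequence leaves the split of reads with ITGB1 uncertain, was at 0.0368 ± 0.00186 of its level in the EV-labelled libraries and 0.0375 ± 0.00151 in the control-labelled libraries. It was itself lower (-0.33, edgeR adjusted p = 0.00139). ITGB1-DT, a transcript that leaves the ITGB1 locus in the opposite direction, had 1.74, 1.42 and 1.61 CPM in the EV-labelled libraries, against 4.03, 3.95 and 3.67 CPM in the control-labelled libraries (-1.28, edgeR adjusted p = 1.14e-05). ITGB1 and ITGB1-DT share 42 exon bases in GENCODE v29, which is 0.699% of the exon bases of ITGB1.

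ITGA3, which encodes α3, the partner of β1 in a laminin receptor of epithelia, was the most abundant alpha subunit. It had 334, 318 and 350 CPM in the EV-labelled libraries, against 475, 505 and 438 CPM in the control-labelled libraries. The groups did not overlap (log2 fold change -0.50 ± 0.06, edgeR adjusted p = 4.09e-06). ITGA10, a collagen receptor subunit known from cartilage, had 4.55, 4.63 and 5.63 CPM in the EV-labelled libraries, against 7.41, 6.40 and 6.12 CPM in the control-labelled libraries. These ranges did not overlap but came close (-0.42 ± 0.14, edgeR adjusted p = 0.0167). The call for ITGA10 was lost without EV replicate 1 (edgeR adjusted p = 0.0761), without EV replicate 2 (edgeR adjusted p = 0.0632) and without control replicate 1 (edgeR adjusted p = 0.074).

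ITGAE encodes αE, which with β7 binds E-cadherin and is best known from lymphocytes within epithelia. It had 11.2, 9.35 and 9.36 CPM in the EV-labelled libraries, against 7.45, 7.72 and 7.62 CPM in the control-labelled libraries. The groups did not overlap (0.40 ± 0.11, edgeR adjusted p = 0.00832), but EV replicate 1 stood above the other two, and without it the call was lost (0.31, edgeR adjusted p = 0.0579). Its partner ITGB7 had 1 or 2 counts in each EV-labelled library and 0 in each control-labelled library, under the 3 counts that a 0 allows, and its ligand gene CDH1 had 0 counts in all. The gene HASPIN, a mitotic histone kinase, lies within ITGAE on the opposite strand and shares 427 exon bases with it, 6.41% of its exon length, with the strand setting of the counting not given in the sources used here. HASPIN was also higher (0.55, edgeR adjusted p = 0.000215), and the ratio of ITGAE to HASPIN was 0.570, 0.370 and 0.429 in the EV-labelled libraries, against 0.448, 0.541 and 0.523 in the control-labelled libraries. These ratios overlap, and the part of HASPIN reads in the ITGAE result was not tested.

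Among receptors for RGD-bearing ligands such as fibronectin and latent TGF-beta, the alpha subunits ITGA5 and ITGAV and the beta subunits ITGB5 and ITGB8 were not called, while ITGB1, which can pair with both alpha subunits, was lower (-0.30, above). ITGA5, which encodes the alpha subunit of the classical fibronectin receptor, had 51.5, 51.2 and 56.9 CPM in the EV-labelled libraries, against 50.6, 49.2 and 45.8 CPM in the control-labelled libraries (0.13 ± 0.07, edgeR adjusted p = 0.124). ITGAV, the alpha subunit shared by the αV receptors, had 40.6, 39.8 and 42.4 CPM in the EV-labelled libraries, against 46.9, 41.1 and 42.3 CPM in the control-labelled libraries (-0.08 ± 0.07, edgeR adjusted p = 0.362). ITGB5, which encodes the β subunit of a vitronectin receptor, had 75.9, 71.0 and 69.1 CPM in the EV-labelled libraries, against 66.2, 67.5 and 61.5 CPM in the control-labelled libraries (0.15 ± 0.06, edgeR adjusted p = 0.0726). For ITGA5 and ITGB5 the libraries of the groups did not overlap, by a margin of less than 2 CPM, whereas those of ITGAV did. Of the 22 tested genes, 11 (50%) had groups that did not overlap, against 50.6% of all tested genes. ITGB8, whose product with αV activates TGF-beta, was at 2.79 ± 0.366 CPM in EV-labelled against 2.48 ± 0.735 CPM in control-labelled libraries (n = 3 each, SD) and was not called. ITGB3 and ITGB6 stayed under 0.5 CPM in every library. In GENCODE v29 ITGB3 shares 51.6% of its exon bases with another gene on its strand, and ITGB7 shares 42.1% with ZNF740 on the opposite strand. Their low counts are therefore uncertain, and whether the annotation behind the counts, on build hg19, holds these overlaps was not tested.

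Leukocyte integrins were at or near the limit. ITGB2, their common beta subunit, was at 2.67 ± 0.265 CPM in the EV-labelled libraries and 3.44 ± 0.322 CPM in the control-labelled libraries (n = 3 each, SD; -0.37 ± 0.16, edgeR adjusted p = 0.0796). ITGAD was at 0.624 ± 0.189 CPM in EV-labelled and 1.04 ± 0.234 CPM in control-labelled libraries (-0.72 ± 0.31, edgeR adjusted p = 0.0734), and it passed without control replicate 1 (edgeR adjusted p = 0.0473). ITGAM averaged 0.349 CPM in EV-labelled and 0.525 CPM in control-labelled libraries and passed only without EV replicate 3 (edgeR adjusted p = 0.0481). Of 9 leukocyte markers in the table, 4 of them integrins, 4 were tested. Of these, 0 were higher (against 20.2% of all tested genes) and 1 was lower (25%, against 20.7%). The 9 markers summed to 6.47 to 7.72 CPM in the EV-labelled libraries and 7.62 to 10.3 CPM in the control-labelled libraries. PTPRC, which marks all leukocytes, had 0 counts in every library. CD8A, a T cell co-receptor, was the lower one, at 2.52 CPM in EV-labelled against 3.91 CPM in control-labelled libraries (-0.63, edgeR adjusted p = 0.00611), and CD4 was not called, at 0.739 CPM in EV-labelled against 0.576 CPM in control-labelled libraries. The part of leukocyte RNA in these results was not tested. ITGA7, a laminin receptor subunit of muscle, averaged 0.537 CPM in EV-labelled and 0.366 CPM in control-labelled libraries and was not called. The collagen receptor genes ITGA1, ITGA2 and ITGA11 and the genes ITGA4, ITGA8 and ITGAL had at most 3 counts in any library, and ITGA2B, ITGA9 and ITGAX had at most 10.

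**Figure D2:**
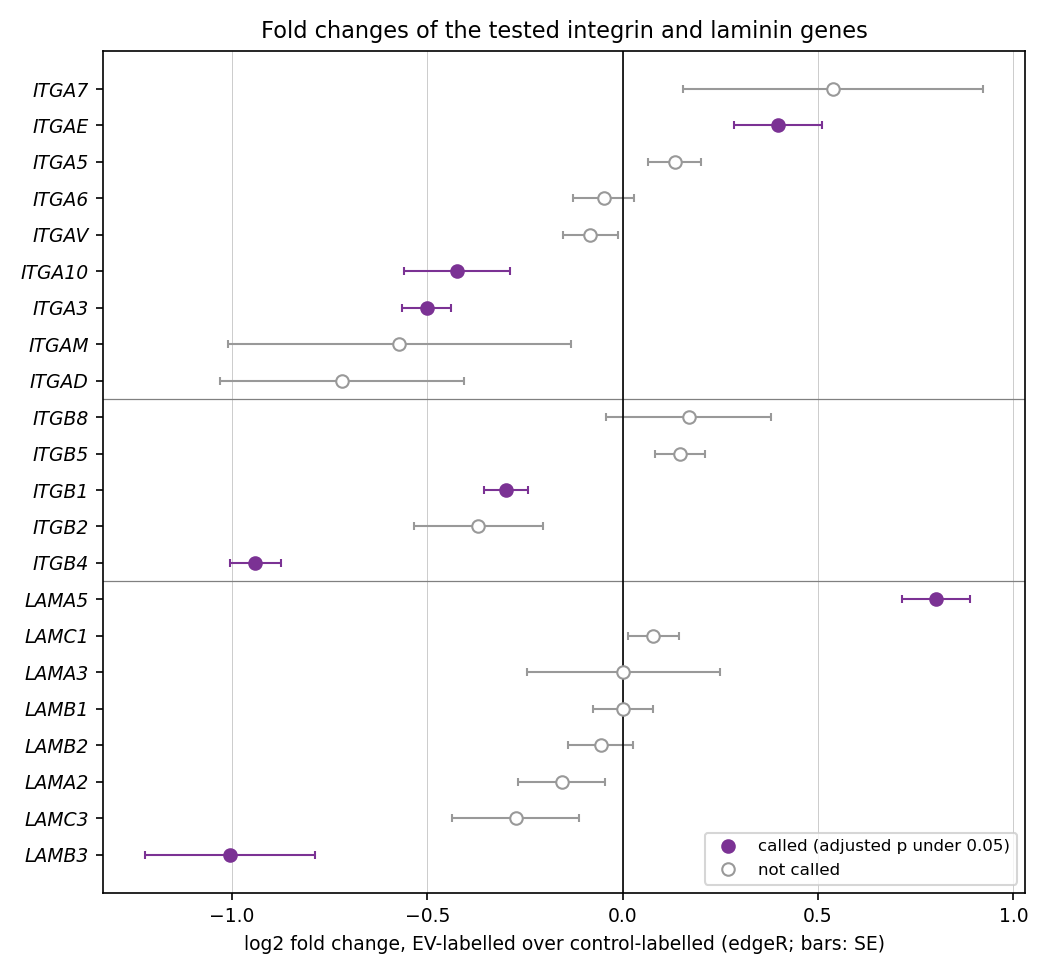
Log2 fold changes, EV-labelled over control-labelled, of the 22 tested genes with their SE, grouped from top to bottom as integrin alpha subunits, integrin beta subunits and laminin chains, with called genes filled. Called genes run from LAMB3 at -1.01 to LAMA5 at 0.80, and ITGB4, at -0.94, is the lowest integrin.

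Among the laminins, LAMA5 was higher, LAMB3 was lower and the other 6 tested chains were not called. LAMA5 encodes α5, the alpha chain of the main laminins of mature epithelial basement membrane. It had 50.03, 46.2 and 56.0 CPM in the EV-labelled libraries, against 32.5, 25.7 and 29.3 CPM in the control-labelled libraries. The groups did not overlap (log2 fold change 0.80 ± 0.09, or 1.74-fold higher, edgeR adjusted p = 8.13e-07). The chains that can complete its trimers were not called. LAMC1, which encodes γ1, had 166, 176 and 193 CPM in the EV-labelled libraries, against 179, 161 and 166 CPM in the control-labelled libraries (0.08 ± 0.06, edgeR adjusted p = 0.349). LAMB1, which encodes laminin β1, had 26.2, 27.6 and 27.4 CPM in the EV-labelled libraries, against 28.0, 25.05 and 28.2 CPM in the control-labelled libraries. LAMB2, which encodes laminin β2, had 31.99, 27.6 and 28.5 CPM in the EV-labelled libraries, against 32.8, 27.6 and 31.5 CPM in the control-labelled libraries. All 3 overlapped between the groups. LAMA5 stood at 0.285 ± 0.0198 of LAMC1 in CPM in the EV-labelled libraries, against 0.172 ± 0.0115 in the control-labelled libraries (n = 3 each, SD; exact permutation p = 0.1, adjusted p = 0.15). LAMA5 shares 244 exon bases, 1.71% of its exon length, with ADRM1 on the opposite strand, which was not called (147.8 CPM in EV-labelled against 140.1 CPM in control-labelled libraries).

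LAMB3 encodes β3, a chain found only in the laminin of hemidesmosomes. It had 0.998, 1.70 and 1.33 CPM in the EV-labelled libraries, against 2.40, 2.56 and 3.01 CPM in the control-labelled libraries. The groups did not overlap (-1.01 ± 0.22, edgeR adjusted p = 0.00107), at 27 to 37 counts per EV-labelled library and 56 to 82 per control-labelled library. LAMA3, the alpha chain of the same trimer, was at 1.17 ± 0.0342 CPM in EV-labelled against 1.16 ± 0.126 CPM in control-labelled libraries (n = 3 each, SD; 0.00 ± 0.25, edgeR adjusted p = 0.996). LAMA2, the alpha chain of muscle and nerve laminin, was at 8.49 ± 0.537 CPM in EV-labelled against 9.48 ± 0.835 CPM in control-labelled libraries, and LAMC3 at 2.66 ± 0.170 CPM in EV-labelled against 3.21 ± 0.274 CPM in control-labelled libraries, and neither was called. LAMA1 and LAMA4 had 0 counts in every library and LAMB4 had 1 count in all.

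Levels of different genes were set side by side as CPM per kilobase of exon. Among beta subunits, ITGB1 was at 144.5 ± 3.04 in the EV-labelled libraries and 177.7 ± 8.95 in the control-labelled libraries, in CPM per kilobase (n = 3 each, SD). ITGB4 followed at 46.8 ± 4.52 in the EV-labelled and 89.9 ± 1.62 in the control-labelled libraries, and ITGB5 at 11.2 ± 0.542 in the EV-labelled and 10.1 ± 0.490 in the control-labelled libraries. ITGB4 made up 24.6%, 20.9% and 23.5% of the summed beta level in the EV-labelled libraries, against 33.2%, 31.9% and 31.8% in the control-labelled libraries. The share of ITGB1 was 71.1% ± 2.00 in the EV-labelled libraries against 63.8% ± 1.02 in the control-labelled libraries. Among alpha subunits, ITGA3 led with 34.1 ± 1.62 in the EV-labelled and 48.3 ± 3.41 in the control-labelled libraries, CPM per kilobase, and its share of the summed alpha level was 62.2% ± 0.768 in the EV-labelled libraries and 70.0% ± 1.80 in the control-labelled libraries. ITGA5, ITGA6 and ITGAV followed, at 7.02 ± 0.419, 6.04 ± 0.398 and 4.99 ± 0.162 CPM per kilobase in the EV-labelled libraries. ITGA5 and ITGA6 overlapped in the control-labelled libraries, at 6.40 ± 0.321 and 6.25 ± 0.573, so their order there is not beyond the spread. With the longest transcript as length they stood apart in the control-labelled libraries, at 9.71 ± 0.487 for ITGA5 and 7.26 ± 0.667 for ITGA6. ITGB4 lay above ITGA6, its only partner, in every library.

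The laminin alpha chains were dominated by LAMA5, with 78.5%, 78.6% and 82.0% of the summed alpha level in the EV-labelled libraries, against 68.6%, 66.4% and 66.4% in the control-labelled libraries. LAMA2 held 18.5% ± 1.90 in the EV-labelled libraries against 30.2% ± 0.884 in the control-labelled libraries. LAMB2 and LAMB1 shared most of the beta chains, at 54.2% ± 3.01 and 42.2% ± 2.10 in the EV-labelled libraries, and LAMB3 held 3.64% ± 1.01 in the EV-labelled libraries against 6.80% ± 0.818 in the control-labelled libraries. LAMC1 made up 98.4% of the gamma chains in EV-labelled and 97.9% in control-labelled libraries. These shares move with any single chain of a class and had no test of their own.

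**Figure D3:**
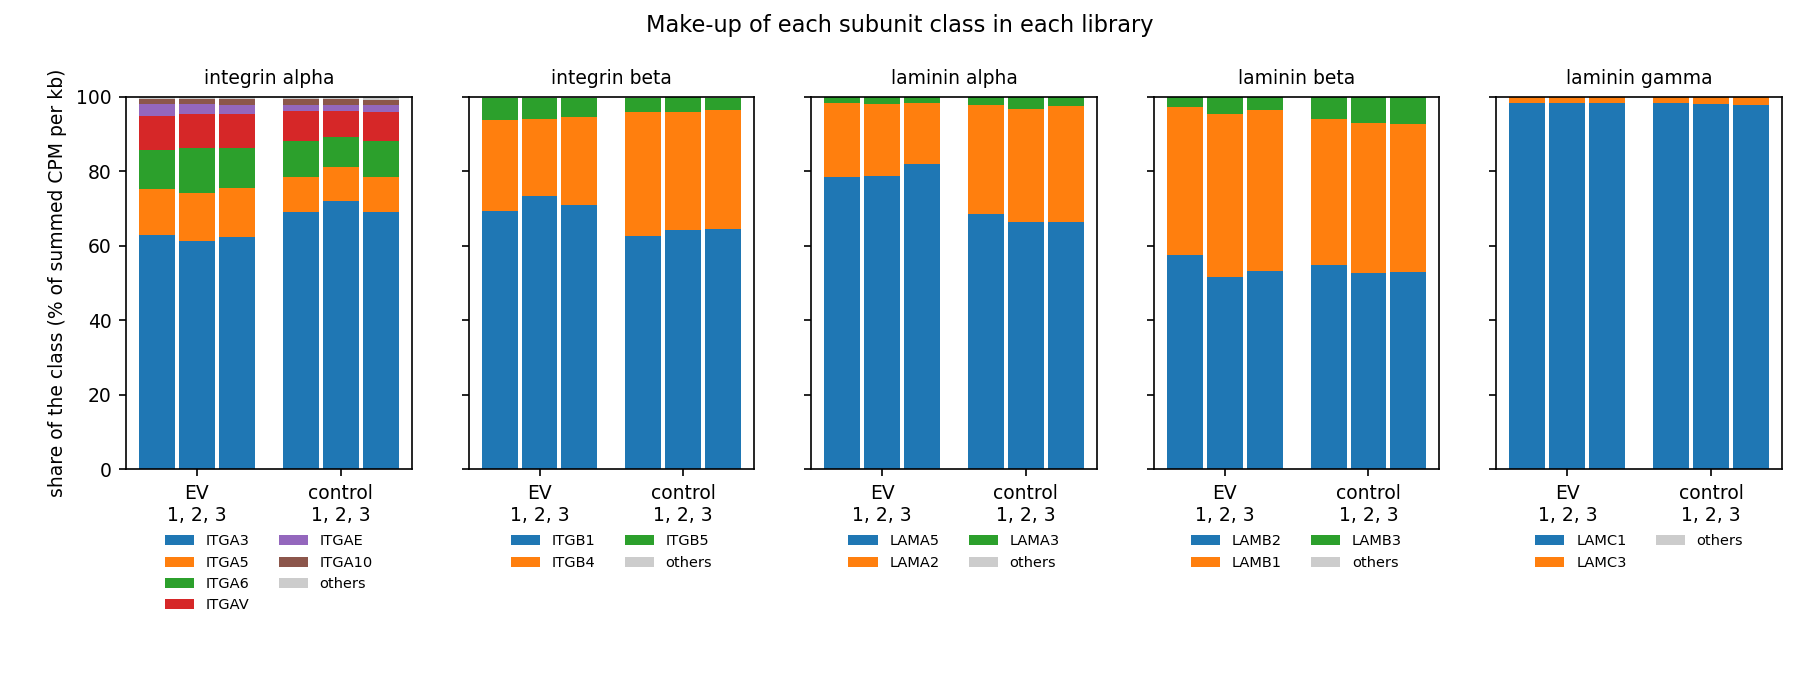
Share of each subunit class (percent of the summed CPM per kilobase of exon) held by each gene, in each EV-labelled library to the left and each control-labelled library to the right, with genes under 1% in both groups pooled as others. The share of ITGB4 among beta subunits is 20.9% to 24.6% in EV-labelled and 31.8% to 33.2% in control-labelled libraries, and that of LAMA5 among laminin alpha chains is 78.5% to 82.0% in EV-labelled and 66.4% to 68.6% in control-labelled libraries.

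Promoter sequence is shown for LAMB3 and LAMA5, the called laminin chains, for LAMA3, which shares a trimer with LAMB3 and was not called, and for ITGB1, beside which ITGB1-DT lies. RefSeq windows of 300 bases on GRCh38.p14 were held for 26 of the 38 genes, 33 windows in all, and ITGB4 and ITGA3 had none. The windows are chr1:209651325-209651624, minus strand (LAMB3, the most downstream of 3 starts), chr18:23872770-23873069, plus strand (LAMA3), chr20:62367263-62367562, minus strand (LAMA5), and chr10:32958181-32958480, minus strand (ITGB1). Each runs 5′ to 3′ across the start, most of it before the start, and capitals mark matches on either strand to TGANTCA (AP-1), GGGCGG (SP1) or GGAATG (the core of TEAD sites), none of which overlap each other.
LAMB3, downstream start: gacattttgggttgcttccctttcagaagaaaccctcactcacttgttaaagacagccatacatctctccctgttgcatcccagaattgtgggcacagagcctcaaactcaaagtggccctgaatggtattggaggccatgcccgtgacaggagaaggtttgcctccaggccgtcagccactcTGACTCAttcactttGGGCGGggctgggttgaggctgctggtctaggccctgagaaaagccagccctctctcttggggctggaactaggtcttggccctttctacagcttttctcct
LAMA3: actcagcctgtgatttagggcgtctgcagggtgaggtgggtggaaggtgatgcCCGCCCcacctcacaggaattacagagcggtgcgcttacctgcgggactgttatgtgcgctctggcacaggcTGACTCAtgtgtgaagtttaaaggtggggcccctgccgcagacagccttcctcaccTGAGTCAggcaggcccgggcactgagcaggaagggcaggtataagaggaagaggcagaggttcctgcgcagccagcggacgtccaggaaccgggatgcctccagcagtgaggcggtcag
LAMA5: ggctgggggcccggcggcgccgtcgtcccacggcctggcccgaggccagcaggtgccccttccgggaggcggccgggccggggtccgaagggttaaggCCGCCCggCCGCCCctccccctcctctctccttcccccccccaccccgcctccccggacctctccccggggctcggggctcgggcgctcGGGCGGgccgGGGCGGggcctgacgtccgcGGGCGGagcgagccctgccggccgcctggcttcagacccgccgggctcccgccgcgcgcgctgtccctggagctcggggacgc
ITGB1, upstream start: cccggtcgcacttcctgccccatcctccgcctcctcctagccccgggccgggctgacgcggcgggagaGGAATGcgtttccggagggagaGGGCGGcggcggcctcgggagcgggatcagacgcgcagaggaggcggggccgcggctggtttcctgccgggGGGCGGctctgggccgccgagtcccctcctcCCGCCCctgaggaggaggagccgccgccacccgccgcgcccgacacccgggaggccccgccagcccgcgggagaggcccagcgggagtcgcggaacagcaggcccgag

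TGANTCA was found in 3 of the 33 windows, and in 7.71% of 35116 promoter windows of all genes. LAMB3 held 1 match, in the window of its most downstream start, with its first base 67 bases before that start. The windows of its other starts held 0, and which start the cells use was not tested. LAMA3 held 2, at 125 and 69 bases before the start, and ITGA5 held 1. LAMB3 was lower in the EV-labelled libraries, whereas LAMA3 and ITGA5 were not called. LAMA5 held 5 matches to GGGCGG and ITGB1 held 3, and that motif was in 19 of the 33 windows and 45.0% of all windows. GGAATG was in 4 of the 33 windows, those of ITGB1, ITGA5, ITGA10 and LAMA2, and in 14% of all windows. A match to these letters describes the sequence and was not tested as a site.

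The partners of these receptors inside and outside the cell were taken as 4 lists. Of 7 hemidesmosome partners, 5 were tested, 4 were lower and 0 higher, with a median log2 fold change of -0.55. Over all tested genes, 20.7% were lower and 20.2% higher. COL17A1, the transmembrane collagen of hemidesmosomes, was at 302 CPM in EV-labelled against 476 CPM in control-labelled libraries (-0.65 ± 0.06, edgeR adjusted p = 7.34e-08). PLEC, which encodes the plectin that binds the β4 tail, was at 657 CPM in EV-labelled against 960 CPM in control-labelled libraries (-0.55, edgeR adjusted p = 2.89e-05), and DST, which encodes the related linker dystonin, was at 619 CPM in EV-labelled against 741 CPM in control-labelled libraries (-0.26, edgeR adjusted p = 0.0133). The groups overlapped for DST, and its call was lost without EV replicate 1 (edgeR adjusted p = 0.0978), without EV replicate 2 (edgeR adjusted p = 0.0574) and without control replicate 1 (edgeR adjusted p = 0.0756), which leaves 3 lower. KRT15, a basal keratin, was at 24.0 CPM in EV-labelled against 47.0 CPM in control-labelled libraries (-0.96, edgeR adjusted p = 2.84e-08). CD151, the tetraspanin that associates with α3β1 and α6β4, was the member not called, at 256 CPM in EV-labelled against 261 CPM in control-labelled libraries (-0.03, edgeR adjusted p = 0.733).

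Of the 44 genes of the integrin adhesome, the proteins gathered at integrin tails, 36 were tested, 6 were higher (16.7%, against 20.2% of all tested genes) and 12 lower (33.3%, against 20.7%), with a median of -0.07. The lower ones included the kindlin gene FERMT1 (-0.59, edgeR adjusted p = 2.9e-06), the paxillin relative LPXN (-0.55) and TLN1, which encodes talin, the activator that binds beta tails (265 CPM in EV-labelled against 358 CPM in control-labelled libraries, -0.43, edgeR adjusted p = 3.49e-05). The higher ones included KANK2, a talin-binding protein (0.88, edgeR adjusted p = 2.63e-07). FERMT2 (0.40, edgeR adjusted p = 3.69e-05) and TLN2 (0.65, edgeR adjusted p = 0.000323), paralogues of FERMT1 and TLN1, were higher. PTK2, which encodes focal adhesion kinase, was at 95.7 CPM in EV-labelled against 99.8 CPM in control-labelled libraries and was not called (edgeR adjusted p = 0.465). ILK, an integrin-linked pseudokinase, was listed at 0.551 CPM in EV-labelled against 0.582 CPM in control-labelled libraries, but 68.1% of its exon bases lie over TAF10 on the opposite strand, so its low level is uncertain.

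Of 26 basement membrane partners and laminin receptors, 12 were tested, 6 were higher (50%, against 20.2% of all tested genes) and 1 lower (8.33%, against 20.7%), with a median of 0.15. AGRN, which encodes agrin, a proteoglycan that binds laminin, was at 132.8 CPM in EV-labelled against 90.2 CPM in control-labelled libraries (0.56 ± 0.07, edgeR adjusted p = 2.68e-06). SDC1, a syndecan co-receptor, was at 50.7 CPM in EV-labelled against 29.2 CPM in control-labelled libraries (0.80 ± 0.10, edgeR adjusted p = 2.7e-06). COL4A2, a chain of basement membrane collagen, was at 29.3 CPM in EV-labelled against 22.1 CPM in control-labelled libraries (0.41, edgeR adjusted p = 0.00121). COL4A1, another such chain, was not called (11.9 CPM in EV-labelled against 12.4 CPM in control-labelled libraries, edgeR adjusted p = 0.678). Nor was HSPG2 (112.8 CPM in EV-labelled against 112.7 CPM in control-labelled libraries, edgeR adjusted p = 0.983). The other higher genes were LOXL2 (0.23), RPSA (0.20) and COL18A1 (0.28), and for COL18A1 the groups overlapped. SDC4, the syndecan of focal adhesions, was lower (88.3 CPM in EV-labelled against 118.0 CPM in control-labelled libraries, -0.42, edgeR adjusted p = 7.28e-05). DAG1, which encodes the laminin receptor dystroglycan, was not called (194.5 CPM in EV-labelled against 181.6 CPM in control-labelled libraries, edgeR adjusted p = 0.262). The laminin linkers NID1 and NID2 averaged under 0.2 CPM.

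Of 41 other integrin ligands and matrix genes, 26 were tested, 4 were higher (15.4%, against 20.2% of all tested genes) and 12 lower (46.2%, against 20.7%), with a median of -0.18. CCN1 and CCN2, secreted ligands of αV receptors, were lower, CCN1 at 164.7 CPM in EV-labelled against 329.3 CPM in control-labelled libraries (-0.999, edgeR adjusted p = 7.53e-10) and CCN2 at 1.502 CPM in EV-labelled against 6.65 CPM in control-labelled libraries (-2.14, edgeR adjusted p = 4.76e-09), as was PLAUR, the urokinase receptor (65.5 CPM in EV-labelled against 115 CPM in control-labelled libraries, -0.81, edgeR adjusted p = 7.74e-08). COL1A2, a chain of type I collagen, was higher (186 CPM in EV-labelled against 114 CPM in control-labelled libraries, 0.71, edgeR adjusted p = 3.72e-07). FN1, which encodes fibronectin, the ligand of α5β1, stayed under 1 CPM in both groups and was not called (edgeR adjusted p = 0.203), and VTN, TNC and SPP1 averaged under 0.2 CPM. Fibroblast markers summed to 205.2 to 225.9 CPM in the EV-labelled libraries and 128.4 to 155.7 CPM in the control-labelled libraries. Most of both sums was COL1A2 alone. Of 11 such markers in the table, 4 were tested, with COL1A2 higher (25%, against 20.2% of all tested genes) and COL3A1 not called. FBN1 and ACTA2 were lower (50%, against 20.7%). FBN1 was at 5.98 CPM in EV-labelled against 9.04 CPM in control-labelled libraries, and ACTA2 at 2.79 CPM against 5.23 CPM. DCN, LUM, POSTN and THY1 had 0 counts in every library, and COL1A1 had 1 to 3 counts in each. The part of fibroblast RNA in these results was not tested.

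**Figure D4:**
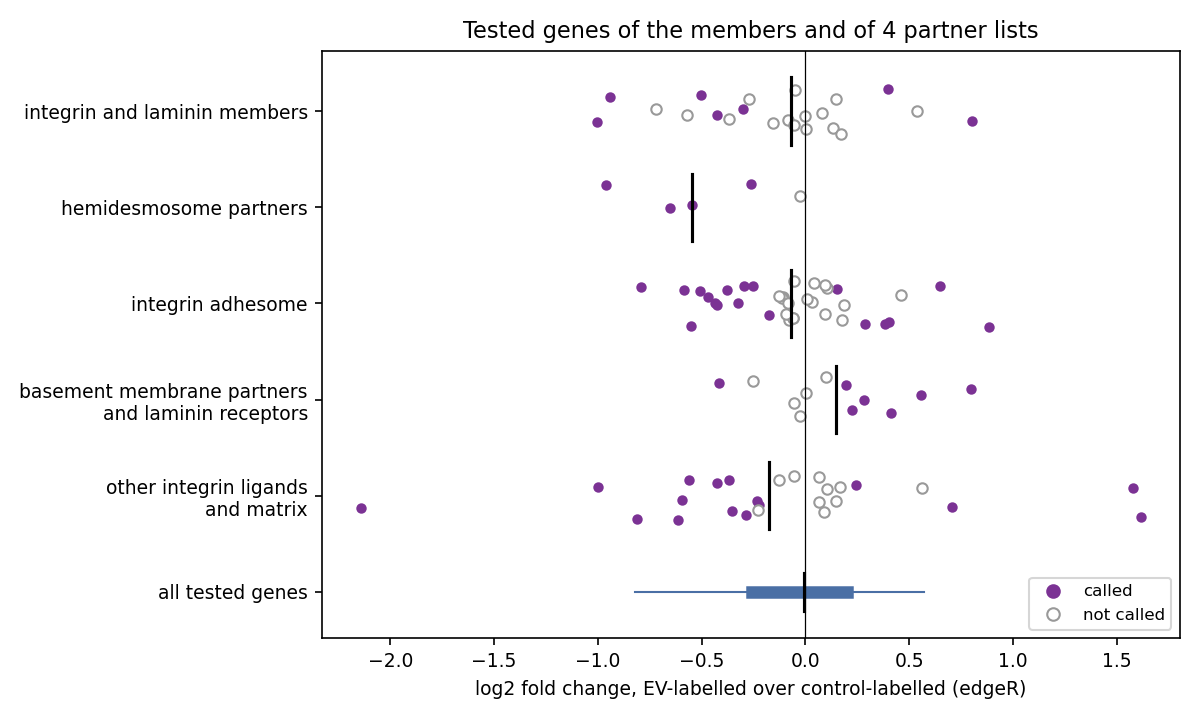
Log2 fold changes, EV-labelled over control-labelled, of the tested genes among the integrins and laminins and 4 partner lists, with called genes filled and black ticks at the medians, above the range of all 14670 tested genes (thin bar from the 5th to the 95th percentile, thick bar the middle 50%). The medians are -0.55 for hemidesmosome partners and 0.15 for basement membrane partners, against -0.01 for all tested genes.

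The authors' deposited table gives fold changes as control-labelled over EV-labelled, as its own group means show. It holds 32 of the 38 genes, and the 7 with a q under 0.05 in the authors' deposited table are the 7 called here, in the same direction once its sign is turned, which is no independent support because the libraries are the same. For ITGB4 the authors' deposited table lists 0.92 on the log2 scale, and for LAMA5 -0.82. Of these genes, only ITGB3 is marked as changed in the authors' deposited table, at 1.27 and a q of 0.0876. It had 9, 1 and 2 counts in the EV-labelled libraries, against 10, 8 and 13 in the control-labelled libraries, and did not pass the count filter here.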

How the data were processed

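Poly(A) RNA of 6 libraries was sequenced in read pairs on an Illumina instrument with a strand-marking kit, per the labels' protocols. The authors deposited whole-number counts per gene for 32453 features, and 375 features with an assembly number in place of a gene name, 0.099% to 0.134% of counts per library, were dropped. TopHat, RSEM and build hg19 are named, with no version, per the submitters' processing notes. The authors also deposited a comparison with log2 group means and fold changes, p-values and q-values, by a test not given in the sources used here.

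Counts were fitted over all named genes with edgeR 4.0.16 in R 4.3.3 (glmQLFit and glmQLFTest, TMM factors, filterByExpr, Benjamini-Hochberg adjustment over 14670 genes, group as the only term), and a gene was called at an adjusted p under 0.05. SEs were taken as the log2 coefficient over the root of F. CPM used the TMM factors. Exon lengths (union of all exons), gene overlaps and chromosomes came from GENCODE v29 on GRCh38, and promoters from RefSeq. The counts name build hg19, and whether the lengths and overlaps hold in the annotation behind them was not tested. Alternatives were other scaling factors and count filters, each library left out, DESeq2 1.42.0, limma-voom (limma 3.58.1), a replicate block and a threshold of 0.01. Values per library are given for called genes averaging 1 CPM or more and uncalled genes averaging 10 CPM or more. From each partner list up to 4 called genes with the lowest adjusted p are named, always with FN1, TLN1, ILK, PTK2, CD151 and DAG1, and any others were named with their values in view. These genes and lists were chosen with earlier results of these data known. Some genes that these rules take are not reported here.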

Additional observations from a re-analysis of the deposited data

How the results depend on the processing

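Under 14 alternatives, ITGB4, ITGA3, ITGB1, LAMA5 and LAMB3 stayed called in the same direction, with log2 fold changes of -0.99 to -0.86 for ITGB4, -0.55 to -0.45 for ITGA3, -0.33 to -0.26 for ITGB1, 0.72 to 0.89 for LAMA5 and -1.20 to -0.81 for LAMB3. Leaving out each library in turn gave 0 to 1 higher and 3 to 5 lower integrin genes, and 1 higher and 1 lower laminin chain each time. The count of 0 came without EV replicate 1, where ITGAE lost its call and ITGB3, which had not passed the count filter, was tested and called lower (-2.54, edgeR adjusted p = 0.0108). Hemidesmosome partners called lower numbered 3 to 4, since DST lost its call without EV replicate 1, EV replicate 2 or control replicate 1, and 3 at an adjusted p under 0.01. With the replicate number as a block, 1 integrin was higher and 4 were lower, 1 laminin chain was higher and 1 lower, and 2846 of all genes were higher and 2897 lower. Same-numbered libraries did not deviate together (correlations of -0.04, -0.02 and -0.03), and differently numbered ones ran from -0.0857 to 0.117. With 3 libraries per group this cannot show whether the samples were paired, which the labels do not state. With the longest transcript in place of the exon union, levels per kilobase moved beyond 1 SD for most genes, since that length is shorter for every gene. ITGA3 was then at 60.95 in EV-labelled and 86.3 in control-labelled libraries, and ITGB1 at 229.5 in EV-labelled and 282.4 in control-labelled libraries, both over 1.5 times the level by exon union. In the EV-labelled libraries ITGA3 then stood above ITGB4 (53.5).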
